A study of Mus musculus with 168 samples.

Results

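Among single cells sorted from the subventricular zone (SVZ) of old mice, 26 carried a large share of ribosomal protein transcripts. By 5 marker genes of mitosis they divided into 12 cells with 2 or more of them (mitotic cells) and 14 with fewer than 2 (non-mitotic cells). Ribosomal protein transcripts are given as R, their share of all transcripts of a cell in percent of TPM (transcripts per 1000000, a level per transcript length that sums to 1000000 in each cell). A cell entered with R of 5 or more. It counted as mitotic when at least 2 of the 5 genes Mki67, Top2a, Cdk1, Ccnb1 and Ube2c reached 1 TPM, and as non-mitotic otherwise. The values of these 5 genes and of the ribosomal protein genes therefore chose the groups and are given as a description. By column name the SVZ cells form a series ogp of 68 cells and a series ogp2 of 65, and the whole set holds 150 single cells and 168 samples.

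The SVZ lines the lateral ventricle and holds the neural stem cells of the adult brain. Most of these stem cells are quiescent and share much of their expression with astrocytes. On activation they raise their ribosome content, enter the cell cycle as activated stem cells and transit amplifying cells, and give rise to neuroblasts that migrate to the olfactory bulb. A dividing cell copies its DNA in S phase with an origin-bound helicase and DNA polymerases, then raises cyclins, mitotic kinases and spindle and kinetochore proteins in G2 and mitosis. In quiescent cells many of these genes are held down by the DREAM complex, which binds E2F sites and the cell cycle homology region (CHR) of their promoters.

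Both groups came from male C57BL/6 mice without any treatment or genetic change named in the labels, aged 23 months by the sample labels and 22 months by the protocol. SVZs of 4 mice were pooled per preparation, live cells were sorted as negative for CD45 and O4 and positive for CD133 and GLAST, and single cells were picked by hand and sequenced by Smart-seq2, which reads full-length transcripts. No animal is named for any cell, so whether the groups share mice is not known. Cells are thus not replicates of a condition, the groups were chosen from their own values, and no difference was tested. Ratios are log2 of (mean TPM + 1) in mitotic cells over that in non-mitotic cells, the range and median over cells stand beside them, and a ratio of 2 in size is 4-fold.

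Of all SVZ cells 9.02% were mitotic (12 cells, 95% Clopper-Pearson interval 4.75 to 15.2, which covers counting error only) and 10.5% non-mitotic and ribosome-rich (14 cells, interval 5.88 to 17.03). Mitotic cells were 14.7% of the ogp series (10 cells, interval 7.28 to 25.4) but 3.08% of the ogp2 series (2 cells, interval 0.375 to 10.7). The non-mitotic cells were 8 ogp and 6 ogp2 cells. Single cells are called by their column names without the shared prefix. The plot of ribosomal protein against mitosis transcripts places all of them.

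**Figure D1:**
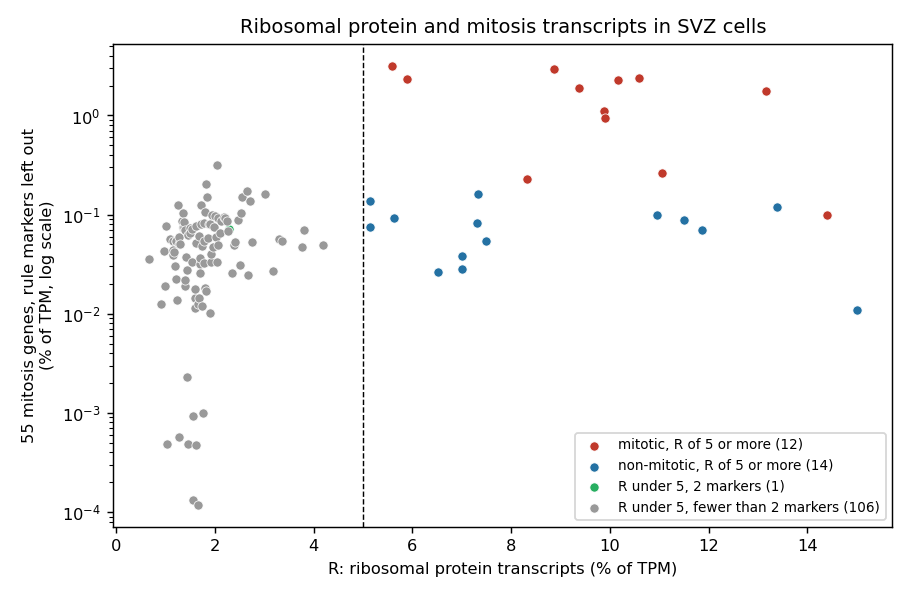
Each point is an SVZ cell, with R in percent of TPM on the x axis and the summed share of 55 mitosis genes, without the 5 genes of the rule, in percent of TPM on a log y axis; the dashed line is R of 5. Of the 12 mitotic cells (red), 9 lie between 0.94% and 3.16%, and 3 lie at 0.265%, 0.227% and 0.098%, while the 14 non-mitotic cells (blue) lie between 0.011% and 0.163%.

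R ran 5.59% to 14.4% of TPM (median 9.9%) in mitotic cells, against 5.14% to 15% (median 7.31%) in non-mitotic cells. The lowest ribosome-rich cells were the non-mitotic cells ogp2_dot_79 (R 5.14) and ogp15 (5.15), and the nearest cells below the limit were ogp2_dot_70 (4.19) and ogp22 (3.81). The lowest mitotic cell was ogp52, with R of 5.59. Below the limit 1 cell, ogp41 with R of 2.28, also had 2 of the 5 markers, Top2a and Ube2c, both at 1.6 TPM.

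All 5 markers were present in 9 mitotic cells and 4 in ogp63. Cell ogp2_dot_43 had Top2a (70.1 TPM) and Cdk1 (100.3 TPM), and ogp54 had Ccnb1 (157.6 TPM) and Ube2c (54.8 TPM). Of the non-mitotic cells 11 had no marker, ogp19 had Top2a at 39.5 TPM, ogp111 had Ube2c at 93.2 TPM and ogp2_dot_6 had Mki67 at 4.7 TPM. A different limit would move these 5 cells with 1 or 2 markers, and the values below are given for single cells where they stand apart. The column of ogp111 sums to 309864 TPM as deposited, and what is missing from it is not stated. It was rescaled to 1000000 like all others.

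Mitotic cells also had more genes at 1 TPM or more, 6220 to 7986 per cell (median 6665.5), against 3225 to 6285 (median 4758.5) in non-mitotic cells. In the SVZ cells with R under 5 and fewer than 2 markers (49 ogp and 57 ogp2 cells) the range was 1937 to 5782 (median 3248). The number of genes moved with every difference given here, and its part in them was not tested. TPM keeps no read depth, and the total RNA of a cell and the depth of its library cannot be told apart in these values. With only the 4 non-mitotic cells that had 5000 genes or more, a comparison added after the data were seen, the median ratio of the mitosis genes below was 6.30, that of replication genes 1.95 and that of astrocyte genes -0.54.

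Of 9122 genes with a mean of 10 TPM or more in either group, 840 were at least 4-fold higher in mitotic cells (9.21%) and 792 at least 4-fold lower (8.68%). The median ratio over all 9122 was -0.07, and 47.7% had the higher mean in mitotic cells. Genes with every mitotic cell above every non-mitotic cell numbered 7 (0.0767%), and 0 genes had every non-mitotic cell above every mitotic cell. The plot of list medians gives the gene lists in order, with mitosis, DNA replication and chromatin compaction at the top and astrocyte genes and glycolysis at the bottom.

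**Figure D2:**
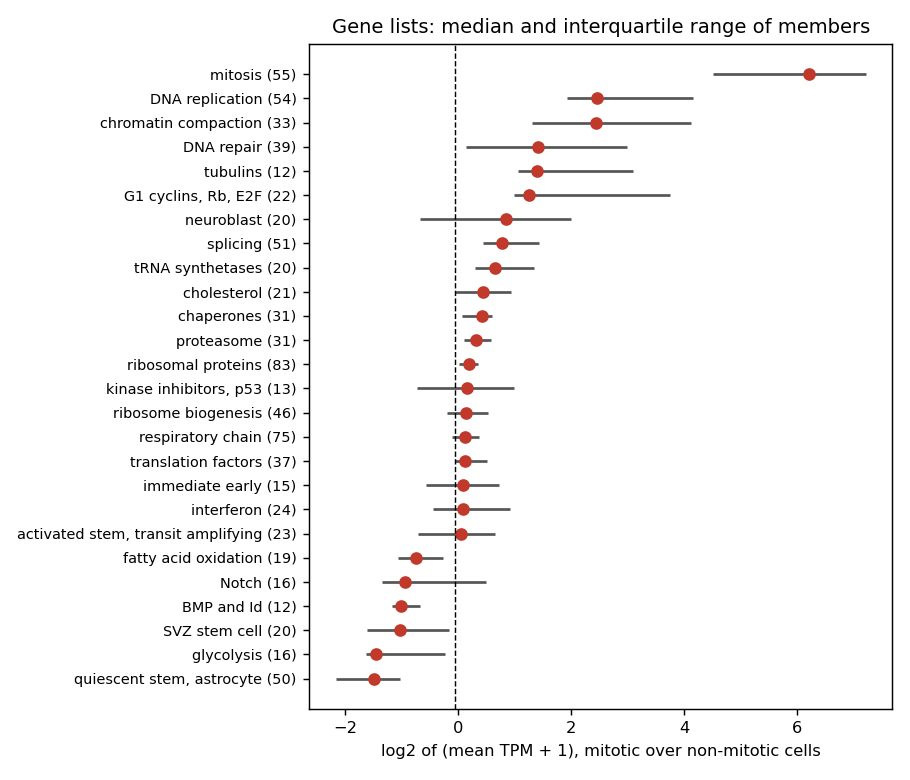
Each row is a gene list, with the number of members that had 10 TPM or more in either group in parentheses; the point is the median and the bar the interquartile range of the members' log2 ratios of (mean TPM + 1), mitotic over non-mitotic cells, and the dashed line is the median of all genes (-0.07). The highest list, mitosis, has its median at 6.22 and the lowest, quiescent stem and astrocyte genes, at -1.49.

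Most genes of the mitosis machinery were present in most mitotic cells, while each non-mitotic cell had few of them at 1 TPM or more. Of 55 genes of mitotic cyclins, kinases, spindle and kinetochore, not counting the 5 markers, 52 were at least 4-fold higher in mitotic cells. Of all genes 9.21% were higher by that much. The 5 markers that chose the groups belong to the same machinery, so these counts are a description and no independent result. Of the 55 genes, 26 stayed under 1 TPM in every non-mitotic cell and passed the 10 TPM filter through mitotic cells alone. None of the 55 was lower by as much, and 2 had the lower mean in mitotic cells. The median ratio of the 55 was 6.22, with 10 TPM added in place of 1 it was 3.87, and 16 of the 55 were listed at 0 in every non-mitotic cell. Summed, the 55 genes made 0.098% to 3.16% of TPM (median 1.82%) in mitotic cells, against 0.011% to 0.163% (median 0.079%) in non-mitotic cells. The mitotic cells had 15 to 55 of the 55 genes at 1 TPM or more and the non-mitotic cells 3 to 14. The number of genes thus did not overlap, while the share did in ogp54 (0.098%). This was not particular to mitosis genes. Numbers did not overlap for chromatin compaction genes (23 to 34 against 9 to 21) or splicing genes (48 to 51 against 28 to 47). Over all genes they overlapped little (6220 to 7986 against 3225 to 6285).

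Of the 5 markers, which chose the groups and are given as a description, Cdk1, the kinase that drives entry into mitosis, ran 0 to 2449.9 TPM (median 941) in mitotic cells and was listed at 0 in all 14 non-mitotic cells. Ccnb1, its cyclin partner, ran 0 to 3101 TPM (median 911) in mitotic cells, against 0 to 0.14 TPM (median 0) in non-mitotic cells. Ube2c, the enzyme that with the anaphase-promoting complex marks cyclins for destruction, ran 0 to 4069 TPM (median 1595) in mitotic cells, against 0 to 93.2 TPM (median 0) in non-mitotic cells, where the highest value is that of ogp111.

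Kinetochore and chromosomal passenger genes were among those with the largest ratios outside the markers. Cdca8 (ENSMUSG00000028873), which encodes the passenger subunit borealin, ran 61.8 to 932 TPM (median 669) in mitotic cells, against 0 to 0.44 TPM (median 0) in non-mitotic cells, a ratio of 9.06. It was the only one of the 55 genes with every mitotic cell above every non-mitotic cell, ogp2_dot_43 and ogp54 included. Aurkb (ENSMUSG00000020897), the kinase of the same complex, ran 0 to 1331 TPM (median 352) in mitotic cells, against 0 to 0.200 TPM (median 0) in non-mitotic cells, and 9 of 12 mitotic cells lay above all non-mitotic ones. Spc25 (ENSMUSG00000005233), a subunit of the NDC80 complex that holds microtubules at the kinetochore, ran 0 to 1482 TPM (median 712) in mitotic cells, against 0 to 0.74 TPM (median 0) in non-mitotic cells, with a ratio of 9.38. All 3 genes had the mitotic cells well apart from the rest, but for the few mitotic cells without them.

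Ccna2 (ENSMUSG00000027715), the cyclin of S phase and G2, ran 0.63 to 1431 TPM (median 798) in mitotic cells, against 0 to 1.69 TPM (median 0) in non-mitotic cells, with a ratio of 8.97 and 10 mitotic cells above the highest non-mitotic cell. Plk1 (ENSMUSG00000030867), the kinase of mitotic entry and spindle assembly, ran 0 to 662 TPM (median 396) in mitotic cells and was listed at 0 in all 14 non-mitotic cells. Tpx2 (ENSMUSG00000027469), which activates Aurora A on the spindle, ran 0 to 679.7 TPM (median 384) in mitotic cells, against 0 to 0.76 TPM (median 0) in non-mitotic cells. The remaining named genes of this kind are spindle proteins for the most part. Prc1, which bundles microtubules of the central spindle, had a median of 526 TPM in mitotic cells, and Nusap1, which binds spindle microtubules, 204 TPM. Both were listed at 0 in every non-mitotic cell. The motor protein gene Kif11, which pushes spindle poles apart, had a median of 192 TPM in mitotic cells and a highest value of 0.09 TPM in non-mitotic cells.

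Other genes with the same pattern were Pimreg and Ckap2l, which were detected in 9 of 12 mitotic cells each and listed at 0 in every non-mitotic cell, Ube2t, a ubiquitin-conjugating enzyme of DNA crosslink repair, and Cdca3. Cdca3, a trigger of mitotic entry, ran 0 to 1452 TPM (median 645) in mitotic cells, against 0 to 28.5 TPM (median 0) in non-mitotic cells. Its ratio of 7.70 became 9.31 without ogp111, the 1 non-mitotic cell that had it. The 12 genes plotted by cell show these patterns beside genes that the groups share.

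**Figure D3:**
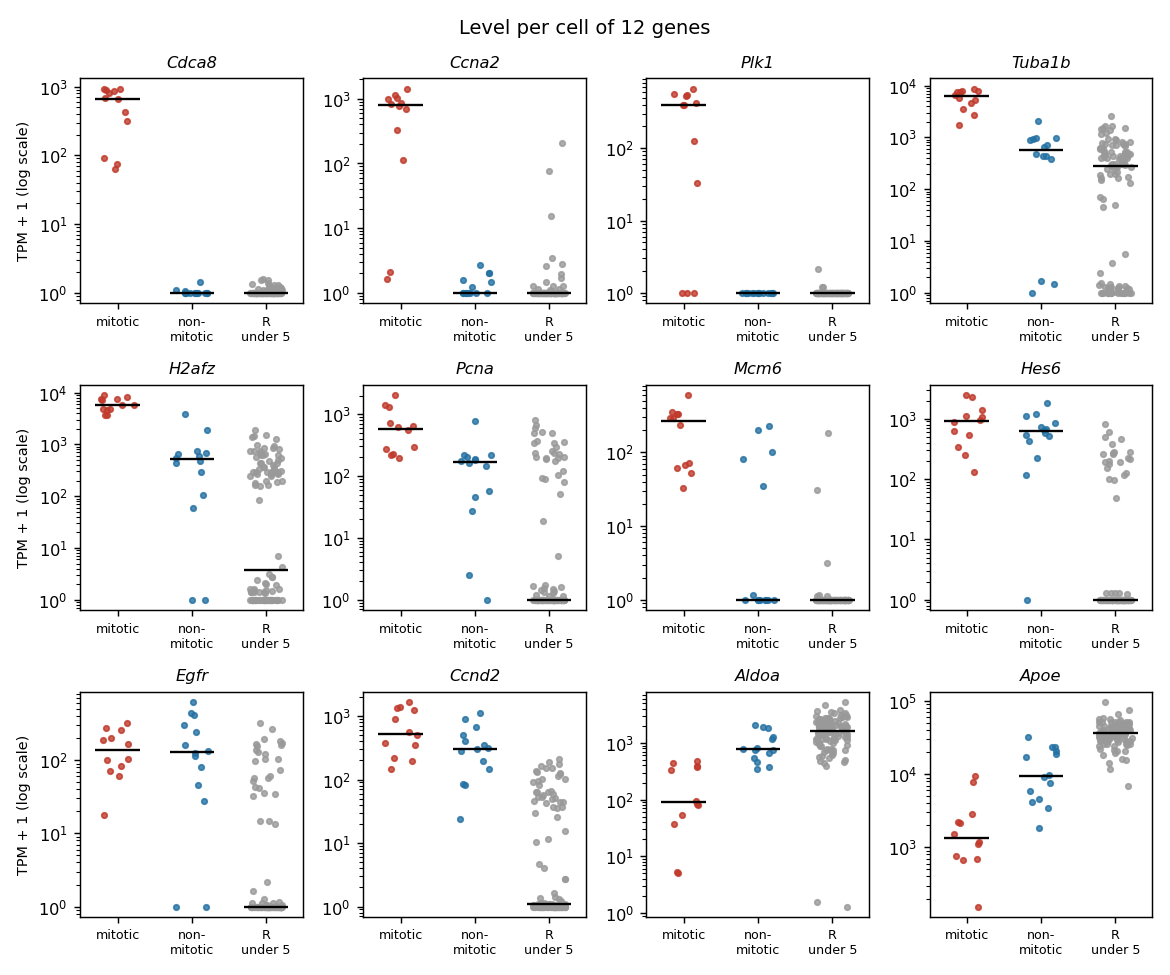
Each panel plots 1 gene, with TPM + 1 on a log axis in 12 mitotic cells (red), 14 non-mitotic cells (blue) and the SVZ cells with R under 5 and fewer than 2 markers (grey); points are cells and bars are medians. Cdca8, Ccna2 and Plk1 are near the bottom of the axis in all non-mitotic cells, Egfr, Ccnd2 and Hes6 overlap between mitotic and non-mitotic cells, and Aldoa and Apoe have their lowest medians in mitotic cells.

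Genes of mitosis share promoter letters that CHR-bound repressors and the CCAAT factor NF-Y are known to read. Promoters were taken from RefSeq (GRCm38.p6, from 250 bases before to 50 bases after the gene start), and 47 of the 55 mitosis genes, 44 of 55 DNA replication genes and 27025 symbols in all had one. The letters searched on both strands were TTTGAA and TTTAAA for the CHR, CCAAT for the CCAAT box, and TTTGGCGC or TTTCGCGC for E2F. None of these is contained in another, matches may overlap, and TTTAAA is its own reverse complement and was counted once. TTTGAA was in 31 of 47 mitosis promoters (65.96%), against 7 of 44 replication promoters (15.9%), 2 of 42 astrocyte gene promoters (4.76%) and 18.1% of all promoters. TTTAAA was in 21.3% of mitosis promoters, 9.09% of replication promoters and 13.2% of all promoters.

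CCAAT was in 70.2% of mitosis promoters, 59.1% of replication promoters and 37.9% of all promoters. TTTGAA and CCAAT stood together in 26 of 47 mitosis promoters (55.3%), 9.09% of replication promoters and 7.12% of all promoters. The E2F letters were in 2 of 47 mitosis promoters (4.26%), 10 of 44 replication promoters (22.7%) and 0.833% of all promoters. These matches describe letters in the windows and show neither binding nor a cause. The plot of motif positions shows where the matches lie.

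**Figure D4:**
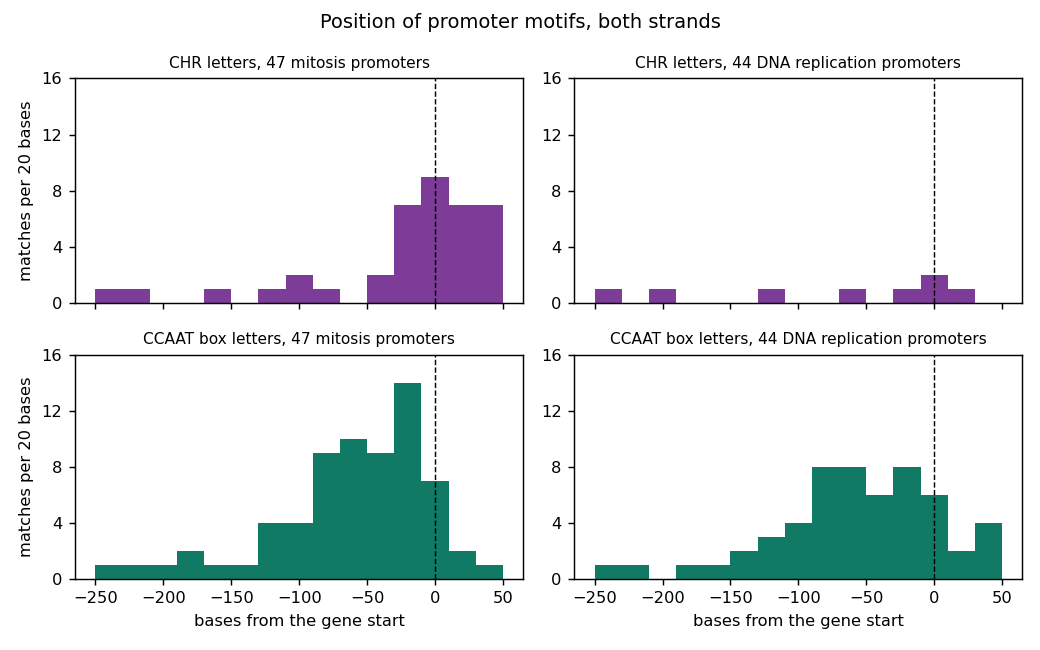
Histograms count matches per 20 bases by distance from the gene start (dashed line) on both strands, for 47 mitosis promoters (left) and 44 DNA replication promoters (right). The 39 TTTGAA matches in mitosis promoters have a median position of 5 and an interquartile range of -28.5 to 21, while the CCAAT matches have medians of -51 in mitosis and -54 in replication promoters.

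The promoters of Plk1 and of the markers Cdk1 and Ube2c are shown for the pairing of CHR and CCAAT letters near the start, and those of Mcm6 and Mcm3, helicase subunits of replication, for the E2F letters. Each is printed 5′ to 3′ along the gene's strand, with the searched letters, or their reverse complement, in capitals. Position 1 is the first base of the gene, and there is no position 0 in these windows. Plk1 is chr7:122159185-122159484 on the + strand, Cdk1 chr10:69352863-69353162 on the - strand, Ube2c chr2:164769679-164769978 on the + strand, Mcm6 chr1:128359656-128359955 on the - strand and Mcm3 chr1:20820263-20820562 on the - strand, all GRCm38.p6.
Plk1: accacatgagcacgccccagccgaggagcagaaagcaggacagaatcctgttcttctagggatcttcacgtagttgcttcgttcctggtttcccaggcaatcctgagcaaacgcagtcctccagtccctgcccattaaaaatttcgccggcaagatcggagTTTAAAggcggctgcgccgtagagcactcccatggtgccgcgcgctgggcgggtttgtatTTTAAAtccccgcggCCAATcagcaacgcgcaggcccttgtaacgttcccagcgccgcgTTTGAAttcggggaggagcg
Cdk1: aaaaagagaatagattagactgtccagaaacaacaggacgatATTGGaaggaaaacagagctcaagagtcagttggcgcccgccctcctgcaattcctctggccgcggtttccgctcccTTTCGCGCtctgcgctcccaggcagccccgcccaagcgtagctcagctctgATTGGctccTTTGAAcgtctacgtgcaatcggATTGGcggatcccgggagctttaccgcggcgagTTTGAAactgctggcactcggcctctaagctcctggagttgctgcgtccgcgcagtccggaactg
Ube2c: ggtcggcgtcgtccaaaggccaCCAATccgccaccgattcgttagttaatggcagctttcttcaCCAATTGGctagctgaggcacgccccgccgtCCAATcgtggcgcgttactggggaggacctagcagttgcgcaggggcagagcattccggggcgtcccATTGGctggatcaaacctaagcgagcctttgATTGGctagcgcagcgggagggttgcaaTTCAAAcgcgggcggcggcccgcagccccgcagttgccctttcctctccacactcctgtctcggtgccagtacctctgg
Mcm6: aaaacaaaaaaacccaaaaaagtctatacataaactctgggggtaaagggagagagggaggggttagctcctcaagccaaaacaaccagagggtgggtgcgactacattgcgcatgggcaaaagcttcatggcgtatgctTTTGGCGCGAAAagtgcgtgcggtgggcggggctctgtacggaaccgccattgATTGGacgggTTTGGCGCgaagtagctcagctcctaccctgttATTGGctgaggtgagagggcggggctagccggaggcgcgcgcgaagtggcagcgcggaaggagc
Mcm3: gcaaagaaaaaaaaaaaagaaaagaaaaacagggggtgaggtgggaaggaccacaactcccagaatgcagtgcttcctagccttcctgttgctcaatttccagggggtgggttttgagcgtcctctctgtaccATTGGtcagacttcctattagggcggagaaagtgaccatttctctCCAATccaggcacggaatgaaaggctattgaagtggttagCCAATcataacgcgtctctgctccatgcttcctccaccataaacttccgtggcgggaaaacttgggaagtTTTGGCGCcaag
Plk1 has TTTGAA at position 31, TTTAAA at -89 and -29 and CCAAT at -14. Cdk1 has TTTGAA at -71 and -15, 3 CCAAT boxes on the other strand and TTTCGCGC at -131. Ube2c has TTTGAA on the other strand at -29. In Mcm6 the E2F letters start at -110 and -47, with a match on the other strand at -106, and in Mcm3 they start at 39.

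Genes of DNA replication were higher in mitotic cells by less than those of mitosis, and some non-mitotic cells had them. Of 54 members reaching 10 TPM, 37 were at least 4-fold higher in mitotic cells and 0 lower, against 9.21% and 8.68% of all genes. All 54 had the higher mean in mitotic cells, where 47.7% of all genes did. The median ratio was 2.46, and it was 3.36 without the non-mitotic cell ogp111. Summed, the genes made 0.116% to 1.46% of TPM (median 0.631%) in mitotic cells, against 0.078% to 0.527% (median 0.133%) in non-mitotic cells. The highest non-mitotic value is that of ogp111, which had 36 of 55 genes, and the next is 0.209% in ogp2_dot_79.

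Pcna, the sliding clamp that holds polymerases on DNA, ran 197 to 2006 TPM (median 584) in mitotic cells, against 0 to 779 TPM (median 169) in non-mitotic cells, a ratio of 2.04. Of the mitotic cells 3 lay above every non-mitotic cell, ogp2_dot_43 (2006 TPM), ogp74 (1415 TPM) and ogp20 (1327 TPM), while ogp111 had 779 TPM and the other 13 non-mitotic cells at most 222 TPM. Mcm6, a subunit of the replicative helicase, ran 32.1 to 591 TPM (median 266) in mitotic cells, against 0 to 225 TPM (median 0) in non-mitotic cells, and 12 of 12 mitotic and 5 of 14 non-mitotic cells had it. Mcm3, another subunit, ran 0 to 387 TPM (median 165) in mitotic cells, against 0 to 398 TPM (median 0) in non-mitotic cells, and the highest value of all 26 cells was in ogp111, without which its ratio of 2.09 became 3.98.

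Among enzymes that supply nucleotides, Rrm2, the small subunit of ribonucleotide reductase, ran 11 to 1265 TPM (median 629) in mitotic cells, against 0 to 148 TPM (median 0) in non-mitotic cells, a ratio of 5.29 that became 6.86 without ogp111, with 11 mitotic cells above all non-mitotic ones. Tk1, thymidine kinase, ran 0 to 499 TPM (median 97) in mitotic cells, against 0 to 0.14 TPM (median 0) in non-mitotic cells, a ratio of 7.11. Tyms, thymidylate synthase, ran 3.49 to 636 TPM (median 216) in mitotic cells, against 0 to 93.8 TPM (median 1.55) in non-mitotic cells, a ratio of 4.93 that became 6.89 without ogp39.

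Other replication genes did not reach 1 TPM in any non-mitotic cell. Cdc7, the kinase that fires origins, ran 0 to 179.9 TPM (median 66.6) in mitotic cells and was listed at 0 in all 14 non-mitotic cells, and Mcm10, which helps load polymerases, ran 0 to 185 TPM (median 33.3) in mitotic cells and was listed at 0 in all 14 non-mitotic cells. Chaf1a, which places histones on new DNA, ran 0 to 127.5 TPM (median 31.2) in mitotic cells, against 0 to 0.71 TPM (median 0) in non-mitotic cells. Ccne1, the cyclin of S phase entry, was at 1 TPM or more in 6 of 12 mitotic and 0 of 14 non-mitotic cells, and its ratio of 5.83 became 4.98 without ogp20.

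The mitotic cells themselves differed in how much of each programme they had. Cell ogp52 had the highest mitosis share (3.16%, 55 of 55 genes) with a replication share of 0.51%, and ogp81 had 2.97% and 0.528%. Cell ogp20 had the highest replication share (1.46%, 55 of 55 genes) with 0.941% of mitosis genes. Cell ogp2_dot_43 had 1.28% of replication genes (49 genes) and 0.227% of mitosis genes (25 genes). Low shares of both were in ogp63, with 0.116% and 0.265%, while ogp54 had 0.563% of replication genes and 0.098% of mitosis genes. The plot of replication against mitosis shares thus spreads the mitotic cells by the balance of the 2. Cells ogp20, ogp2_dot_43 and ogp54 had the larger share in replication genes. Cell ogp52, highest in mitosis share, still had 0.51% of replication genes, above the median of 0.133% in non-mitotic cells. No cell was assigned a phase.

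**Figure D5:**
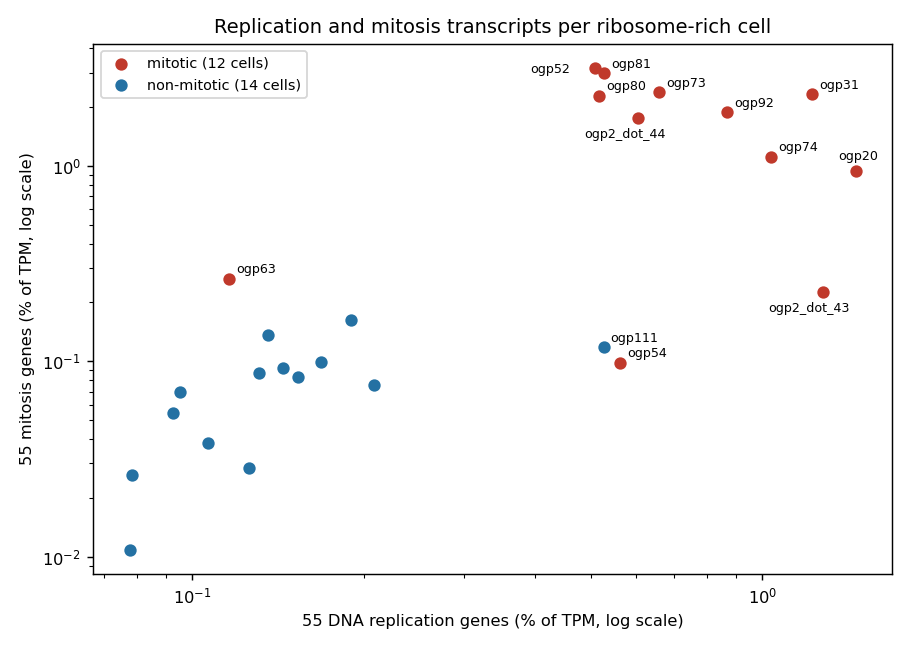
Each point is a ribosome-rich cell, with the summed share of 55 DNA replication genes on the x axis and of 55 mitosis genes on the y axis, both in percent of TPM on log scales; the 12 mitotic cells (red) and the non-mitotic cell ogp111 are named. Cell ogp54 lies beside ogp111, ogp63 lies nearest to the other non-mitotic cells (blue), and ogp2_dot_43 has 1.28% of replication and 0.227% of mitosis genes.

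Many genes of chromatin compaction and some tubulin genes were at least 4-fold higher in mitotic cells. Of 33 genes of chromatin compaction, 20 were at least 4-fold higher and 0 lower, against 9.21% and 8.68% of all genes. The median was 2.43, and 3.04 without the non-mitotic cell ogp32. H2afz, which encodes the histone variant H2A.Z, ran 3704 to 8829.7 TPM (median 5785) in mitotic cells, against 0 to 3949.6 TPM (median 517) in non-mitotic cells, a ratio of 3.01, and 10 mitotic cells lay above every non-mitotic cell. Hmgb2, a DNA-bending protein of proliferating cells, ran 279.9 to 4034 TPM (median 1869) in mitotic cells, against 0 to 709.8 TPM (median 52.8) in non-mitotic cells, a ratio of 4.02 that became 4.81 without ogp32. Ncaph, a subunit of condensin, the complex that folds mitotic chromosomes, ran 0 to 411 TPM (median 194) in mitotic cells, against 0 to 0.13 TPM (median 0) in non-mitotic cells.

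Of 12 tubulin genes 4 were at least 4-fold higher and 1 was lower by as much, against 9.21% and 8.68% of all genes. The tubulin median was 1.40. Tuba1b, the main alpha-tubulin of dividing cells, ran 1724 to 8708 TPM (median 6201) in mitotic cells, against 0 to 2045 TPM (median 563) in non-mitotic cells, a ratio of 3.19, with 11 mitotic cells above the highest non-mitotic one. Tubb5, its beta-tubulin counterpart, ran 656 to 3747 TPM (median 2818) in mitotic cells, against 0.47 to 1276 TPM (median 226) in non-mitotic cells, a ratio of 3.07. Stmn1, which encodes stathmin and destabilises microtubules, ran 1677 to 5717 TPM (median 3489) in mitotic cells, against 0 to 3199 TPM (median 389) in non-mitotic cells, a ratio of 2.33. All 3 were detected in every mitotic cell and in 11 or more of the 14 non-mitotic cells, so these genes differed in level more than in presence.

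Genes listed with the G1 cyclins, not all of them genes of G1, divided into those shared by both groups and those seen in mitotic cells. Of 22 such genes 8 were at least 4-fold higher in mitotic cells and 0 lower, against 9.21% and 8.68% of all genes. The median was 1.25. Foxm1, the transcription factor of G2 genes, ran 0 to 107.3 TPM (median 44.3) in mitotic cells and was listed at 0 in all 14 non-mitotic cells. E2f8, a repressor of the E2F family, ran 0 to 89.9 TPM (median 7.08) in mitotic cells and was listed at 0 in all 14 non-mitotic cells, and Rbl1, the pocket protein p107, ran 0 to 193 TPM (median 35.3) in mitotic cells, against 0 to 0.516 TPM (median 0) in non-mitotic cells. By contrast Ccnd2, a D cyclin of G1, ran 148 to 1649 TPM (median 526) in mitotic cells, against 23.3 to 1127 TPM (median 302) in non-mitotic cells, a ratio of 0.95 that was -0.35 in ogp2 cells alone, and its partner kinase Cdk4 ran 811 to 1739.6 TPM (median 1324) in mitotic cells, against 0.69 to 1873 TPM (median 512) in non-mitotic cells, a ratio of 1.08. Both were in nearly all cells of both groups, and in the cells with R under 5 their means were 29 and 148 TPM.

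Inhibitors of the cell cycle had no common direction, with a median of 0.16. At least 4-fold higher were 2 of 13 genes and lower was 1, where 9.21% and 8.68% of all genes were. Cdkn1a, the p53 target p21, was detected in 9 of 12 mitotic and 4 of 14 non-mitotic cells, and ran 0 to 352 TPM (median 91.3) in mitotic cells, against 0 to 325 TPM (median 0) in non-mitotic cells, a ratio of 0.99. Cdkn1b, which encodes p27, ran 10.8 to 89.4 TPM (median 44.8) in mitotic cells, against 0 to 91.8 TPM (median 30) in non-mitotic cells, a ratio of 0.39 that was -0.64 in ogp2 cells alone. Cdkn1c, which encodes p57, was in 2 of 12 mitotic and 1 of 14 non-mitotic cells, too few for a direction, since the sign of its ratio turns without ogp20. Gadd45g, a growth arrest gene, was the one lower by 4-fold and ran 0 to 628 TPM (median 73.8) in mitotic cells, against 0 to 2045 TPM (median 444) in non-mitotic cells, a ratio of -2.02. Btg1, an antiproliferative gene, ran 0.55 to 57.2 TPM (median 20.9) in mitotic cells, against 0 to 203 TPM (median 64.1) in non-mitotic cells, a ratio of -1.70 that turned to 0.12 against the 4 non-mitotic cells with 5000 genes or more, with 7 non-mitotic cells above every mitotic cell.

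Genes of activated stem cells had no common direction. Of 23 genes of activation and transit amplification outside the cell cycle, 1 was at least 4-fold higher in mitotic cells and 0 were lower. The shares of all genes were 9.21% and 8.68%. The higher mean was in mitotic cells for 13 of the 23, and the median was 0.04 beside -0.07 for all genes. Egfr is the receptor that marks activated stem cells. It ran 16.9 to 320 TPM (median 135) in mitotic cells, against 0 to 619.7 TPM (median 128.8) in non-mitotic cells. It was detected in 12 of 12 mitotic and 12 of 14 non-mitotic cells. Its ratio of -0.32 turned to 0.34 with 1 marker as the limit and 0.25 in ogp2 cells alone. With logs averaged over cells it was 0.65, on a scale where the median of all genes was 0.79. The mean of Egfr in cells with R under 5 was 26.6 TPM.

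Mycn is a growth-promoting factor of progenitors. It ran 21.1 to 318 TPM (median 98.3) in mitotic cells, against 0 to 673 TPM (median 122.2) in non-mitotic cells. Its ratio of -0.70 became 0.49 with logs averaged over cells, where the median of all genes was 0.79. Hes6, which opposes Hes1 and promotes differentiation, ran 130.1 to 2427 TPM (median 913) in mitotic cells, against 0 to 1844 TPM (median 617) in non-mitotic cells, a ratio of 0.56. For Egfr, Mycn and Hes6 the 2 groups overlapped over most of their range. Sox11, a factor of neuronal commitment, was also present in every mitotic cell and ran 65.9 to 606 TPM (median 221) in mitotic cells, against 0 to 391 TPM (median 49.7) in non-mitotic cells, a ratio of 1.39, while its relative Sox4 ran 0.16 to 59 TPM (median 9.32) in mitotic cells, against 0 to 148 TPM (median 37.1) in non-mitotic cells, a ratio of -1.24. The 1 member past 4-fold was E2f1, a transcription factor of S phase genes, which was detected in 4 mitotic and 0 non-mitotic cells, and whose ratio of 3.90 became 2.51 without ogp2_dot_43 and turned to -0.41 when 3 markers were required.

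Neuroblast genes were partly higher in mitotic cells. Of 20 members reaching 10 TPM, out of 35, 5 were at least 4-fold higher and 1 lower, against 9.21% and 8.68% of all genes. The median was 0.85, and it was 1.73 without ogp111. Dlx2, a factor of interneuron fate, was at 325.2, 97.2, 39.4 and 112.5 TPM in the mitotic cells ogp73, ogp74, ogp80 and ogp81, at under 1 TPM in the other 8 and listed at 0 in every non-mitotic cell. Dlx1, its neighbour gene and partner, was detected in the same 4 cells, with 201, 94.2, 69.1 and 28.2 TPM in that order. Dcx, which encodes doublecortin, the microtubule protein of migrating neuroblasts, reached 50.1 TPM in ogp73 and 10.96 TPM in ogp74, and was listed at 0 in every non-mitotic cell. Cells with Dlx1 and Dlx2 were thus 4 of 12 mitotic and 0 of 14 non-mitotic cells, all 4 of the ogp series, and the exact interval for 0 of 14 reaches 23.2%. Dpysl3, an axon growth gene, ran 0 to 774 TPM (median 196) in mitotic cells, against 0 to 298 TPM (median 0.035) in non-mitotic cells, and its ratio of 2.11 became 2.72 without ogp39.

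Astrocyte and quiescent stem cell genes were mostly lower in mitotic cells. Of 50 such genes 15 were at least 4-fold lower and 1 higher, where 8.68% of all genes were lower by that much, and 46 had the lower mean, as 52.3% of all genes did. The median was -1.49, in ogp2 cells alone (2 mitotic and 6 non-mitotic) it was -0.71, and against the 4 non-mitotic cells with 5000 genes or more it was -0.54. Summed, these genes made 0.736% to 5.9% of TPM (median 1.69%) in mitotic cells, against 1.8% to 13.6% (median 5.05%) in non-mitotic cells, and a median of 18.9% in cells with R under 5. The groups overlapped, with ogp2_dot_43 the highest mitotic cell and ogp111 the lowest non-mitotic one.

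Apoe, the apolipoprotein of astrocytes, ran 154 to 9576 TPM (median 1364) in mitotic cells, against 1869 to 32295 TPM (median 9332) in non-mitotic cells, a ratio of -2.35. Slc1a3, which encodes the sorted surface protein GLAST, was detected in every cell and ran 140.2 to 1369 TPM (median 521) in mitotic cells, against 229 to 4885 TPM (median 1317) in non-mitotic cells, a ratio of -1.48. Ntsr2, a neurotensin receptor of astrocytes, ran 22.5 to 1774 TPM (median 182) in mitotic cells, against 282 to 6464 TPM (median 1131) in non-mitotic cells, and its ratio of -2.71 became -3.54 without ogp2_dot_43. Each of these was in all 26 cells, with the mitotic cells in the lower part of the range.

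Aldoc, the brain aldolase of astrocytes, ran 0.13 to 1376 TPM (median 3.83) in mitotic cells, against 0.355 to 6259.7 TPM (median 981) in non-mitotic cells, and its ratio of -3.43 became -4.77 without ogp2_dot_43. Clu, which encodes clusterin, ran 0.17 to 2104 TPM (median 1.19) in mitotic cells, against 0 to 5208 TPM (median 427) in non-mitotic cells. Its ratio of -2.70 became -5.28 without ogp2_dot_43, the mitotic cell with the most of it, and turned to 1.19 against the 4 non-mitotic cells with 5000 genes or more. Gfap, the intermediate filament of astrocytes and SVZ stem cells, was at 1 TPM or more in 0 of 12 mitotic cells, which allows a share of up to 26.5% by the exact interval. It was in 6 of 14 non-mitotic cells, at 64.5 to 3454 TPM, 3 cells of each series. The one gene at least 4-fold higher in mitotic cells was Aqp4, the water channel of astrocyte endfeet, which ran 0 to 98 TPM (median 0.065) in mitotic cells, against 0 to 0.18 TPM (median 0) in non-mitotic cells, with a mean of 285 TPM in cells with R under 5.

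Of 20 SVZ stem cell genes 1 was at least 4-fold higher in mitotic cells and 2 were lower, against 9.21% and 8.68% of all genes. The list median was -1.03, which turned to 0.12 against the 4 non-mitotic cells with 5000 genes or more. The higher one was Prom1, which encodes the sorted protein CD133. It was at 1 TPM or more in 7 of 12 mitotic and 1 of 14 non-mitotic cells, and ran 0 to 109.4 TPM (median 29.8) in mitotic cells, against 0 to 5.15 TPM (median 0) in non-mitotic cells. The other 5 mitotic and 13 non-mitotic cells, all sorted as CD133 positive, had it under 1 TPM. Cd81, a tetraspanin of stem cells and astrocytes, ran 43.1 to 1645 TPM (median 341) in mitotic cells, against 269 to 2744 TPM (median 1601) in non-mitotic cells, a ratio of -1.64, and Thbs4, a thrombospondin of SVZ stem cells, was in 3 mitotic and 7 non-mitotic cells with a ratio of -2.04 that became -3.06 without ogp2_dot_43 and turned to 2.68 against those 4 cells.

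Notch genes had a median of -0.94 over 16 members, with 0 at least 4-fold higher and 2 lower. BMP and Id genes had a median of -1.02 over 12 members, with 0 higher and 2 lower. By that much 9.21% of all genes were higher and 8.68% lower. Both medians turned positive, to 0.28 and 0.04, when logs were averaged over cells in place of TPM, a scale on which the median of all genes was 0.79. Notch2, a receptor kept in quiescent stem cells, ran 1.86 to 37 TPM (median 7.58) in mitotic cells, against 0 to 107.3 TPM (median 26.7) in non-mitotic cells, a ratio of -1.49 that turned to 0.12 against the 4 non-mitotic cells with 5000 genes or more. Jag1, a ligand of Notch receptors, ran 0 to 65.5 TPM (median 27.7) in mitotic cells, against 0 to 283 TPM (median 75.7) in non-mitotic cells, a ratio of -1.40 that turned to 0.23 when 1 marker made a cell mitotic, with 8 non-mitotic cells above every mitotic cell. Id3, a target of BMP signals, was in 3 of 12 mitotic and 6 of 14 non-mitotic cells, and its ratio of -2.15 became -1.48 without ogp77, -3.03 without ogp2_dot_43 and 1.07 in ogp2 cells alone.

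Most genes of glycolysis and of fatty acid oxidation had the lower mean in mitotic cells, but few differed by 4-fold, and the share that did was near that of all genes (8.68% lower). Of 16 glycolysis genes 13 had the lower mean in mitotic cells, where 52.3% of all genes did, 1 was at least 4-fold lower and 0 higher, and the median was -1.45. Aldoa, the aldolase of most tissues, ran 3.99 to 476 TPM (median 89) in mitotic cells, against 349 to 2042 TPM (median 773) in non-mitotic cells, a ratio of -2.31, and 11 of 14 non-mitotic cells lay above the highest mitotic cell. Gpi1, which follows hexokinase in the pathway, ran 0 to 266 TPM (median 100.7) in mitotic cells, against 0 to 724 TPM (median 367) in non-mitotic cells, a ratio of -1.69, with 10 non-mitotic cells above all mitotic ones. Ldha, which makes lactate, ran 0 to 513 TPM (median 113.2) in mitotic cells, against 0.59 to 1491 TPM (median 479) in non-mitotic cells, a ratio of -1.84. The summed share was 0.446% to 0.825% of TPM (median 0.629%) in mitotic cells, against 0.669% to 1.08% (median 0.888%) in non-mitotic cells.

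Of 19 genes of fatty acid oxidation 17 had the lower mean, 2 by at least 4-fold and 0 higher by as much. The median was -0.75, which became 0.41 with logs averaged over cells, where the median of all genes was 0.79. Acadvl, the dehydrogenase of very long chain fatty acids, ran 0 to 141 TPM (median 26.6) in mitotic cells, against 0 to 898 TPM (median 125.8) in non-mitotic cells. Its ratio of -2.36 turned to 0.24 against the 4 non-mitotic cells with 5000 genes or more. Nuclear genes of the respiratory chain had 48 of 75 means higher in mitotic cells, 0 past 4-fold in either direction, and a median of 0.12.

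Single enzymes of amino acid and lipid metabolism were among the largest ratios in both directions. Asns (ENSMUSG00000029752), which makes asparagine, ran 0 to 714 TPM (median 122.9) in mitotic cells and was listed at 0 in all 14 non-mitotic cells, with 10 mitotic cells positive. Ass1 (ENSMUSG00000076441), argininosuccinate synthetase, had the most negative ratio of the genes eligible for naming and ran 0 to 10.3 TPM (median 0) in mitotic cells, against 0 to 1208 TPM (median 172) in non-mitotic cells, and its ratio of -7.01 became -7.85 without ogp2_dot_44, the only mitotic cell that had it. Gamt, the last enzyme of creatine synthesis, ran 0 to 60.2 TPM (median 0) in mitotic cells, against 0 to 698 TPM (median 148) in non-mitotic cells, a ratio of -3.76. D2hgdh, which clears D-2-hydroxyglutarate, ran 0 to 0.11 TPM (median 0) in mitotic cells, against 0 to 182 TPM (median 15.5) in non-mitotic cells, a ratio of -5.70, and Mgll, the lipase of monoacylglycerols, was in 2 mitotic and 7 non-mitotic cells. Pdk2, a kinase that slows entry of pyruvate into mitochondria, was picked after its values were seen for the most cells apart among lower genes. It ran 0 to 117.1 TPM (median 18.4) in mitotic cells, against 93.6 to 600.2 TPM (median 373) in non-mitotic cells, a ratio of -3.13, with 13 of 14 non-mitotic cells above every mitotic cell.

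The remaining genes named for a lower level were Nat8f1, Ramp2, Plekhb1, Entpd2, Chchd10, Tbc1d17, Luzp2, Stx4a, Pdlim4 and Papss2. Nat8f1, an N-acetyltransferase, ran 0 to 7.7 TPM (median 0) in mitotic cells, against 0 to 477 TPM (median 50.7) in non-mitotic cells, a ratio of -5.45, and Chchd10, a mitochondrial protein, ran 0 to 27.5 TPM (median 0.17) in mitotic cells, against 0 to 366 TPM (median 84.8) in non-mitotic cells, a ratio of -3.83. Entpd2, an ATP-splitting ectoenzyme of SVZ stem cells, was in 2 mitotic and 8 non-mitotic cells, and its ratio of -4.40 became -6.87 without ogp52 and turned to 2.85 against the 4 non-mitotic cells with 5000 genes or more. All 10 had at most 5 positive mitotic cells. That each had at least 7 positive non-mitotic cells was a condition of the rule that named them.

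Few genes of protein synthesis differed by 4-fold, where 9.21% of all genes were higher and 8.68% lower by that much. Ribosomal protein genes chose both groups, and their median of 0.19 over 83 members, with 0 past 4-fold, is given as a description only. Ribosome biogenesis genes had a median of 0.13 over 46 members, with 1 at least 4-fold higher and 0 lower, and translation factors 0.11 over 37, with 2 higher and 0 lower. Against the 4 non-mitotic cells with 5000 genes or more these 3 medians were -0.27, -0.24 and -0.11. Eif2s2, the beta subunit of the initiation factor that brings the first tRNA, was the factor with the largest ratio and ran 67.8 to 545 TPM (median 287) in mitotic cells, against 0 to 170.3 TPM (median 47.9) in non-mitotic cells, a ratio of 2.41, with 9 mitotic cells above every non-mitotic one. The tRNA synthetases had a median of 0.66 over 20 members, of which 16 had the higher mean in mitotic cells, 2 by at least 4-fold, and 0 were lower by as much.

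Splicing genes had the higher mean in mitotic cells for 47 of 51 members, against 47.7% of all genes, yet only 2 passed 4-fold, 0 were lower by as much, and the median was 0.78. Their summed share was 1.27% to 2.37% of TPM (median 1.998%) in mitotic cells, against 0.646% to 1.85% (median 0.98%) in non-mitotic cells. U2af1, which reads the 3′ splice site, ran 107.1 to 683 TPM (median 298) in mitotic cells, against 0 to 252 TPM (median 23) in non-mitotic cells, a ratio of 2.31. Lsm2, part of the ring on U6 RNA, ran 43 to 605 TPM (median 291) in mitotic cells, against 0 to 186 TPM (median 0.115) in non-mitotic cells, and its ratio of 3.22 became 3.82 without ogp32. Chaperone genes were higher in 24 of 31 cases (median 0.42) and proteasome genes in 26 of 31 (median 0.31), with 0 past 4-fold in either direction. Hsp90aa1, the inducible cytosolic HSP90, ran 751 to 3609.6 TPM (median 2481) in mitotic cells, against 198 to 1626 TPM (median 793) in non-mitotic cells, a ratio of 1.46 that was -0.09 in ogp2 cells alone.

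DNA repair genes were at least 4-fold higher in 16 of 39 cases and lower in 0, against 9.21% and 8.68% of all genes. The median was 1.40. Fancd2, of the Fanconi crosslink pathway, ran 0 to 62.6 TPM (median 24.2) in mitotic cells and was listed at 0 in all 14 non-mitotic cells, and Exo1, a nuclease of mismatch repair and end resection, ran 0 to 176 TPM (median 8.8) in mitotic cells, against 0 to 0.68 TPM (median 0.02) in non-mitotic cells, with 7 mitotic and 0 non-mitotic cells at 1 TPM or more. These levels were low, with highest values of 62.6 and 176 TPM in mitotic cells.

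Interferon, immediate early and cholesterol genes had medians near 0 (0.08, 0.08 and 0.44 over 24, 15 and 21 members). At least 4-fold higher were 3, 1 and 2 of them, and lower were 2, 0 and 1, where 9.21% and 8.68% of all genes were. The interferon median was -0.59 without ogp2_dot_43, a mitotic cell with 1004 TPM of Usp18, which removes the interferon-induced modifier ISG15. The ratio of Usp18 was 2.49, 0.99 without that cell and 4.22 without the non-mitotic cell ogp2_dot_39. Ifit2, an interferon-induced RNA-binding protein, was in 9 mitotic and 0 non-mitotic cells, and its ratio of 5.76 became 5.11 without ogp2_dot_43. Sc5d, a desaturase late in cholesterol synthesis, was in 8 mitotic and 0 non-mitotic cells, with a ratio of 6.00, but its mean in cells with R under 5 was 164 TPM, above the 68.2 TPM of mitotic cells.

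The 7 genes with every mitotic cell above every non-mitotic cell were Cdca8, Selenoh, Nup93, Vrk1, Cenpw, Cyp39a1 and Fntb, and all but Cdca8 are named here after their values were seen. Selenoh, a nuclear selenoprotein, was the most abundant and ran 810.4 to 1994 TPM (median 1264) in mitotic cells, against 0 to 664 TPM (median 83) in non-mitotic cells, a ratio of 2.91. Nup93, a scaffold protein of the nuclear pore, ran 1.79 to 200.4 TPM (median 113.9) in mitotic cells, against 0 to 0.100 TPM (median 0) in non-mitotic cells. Vrk1, a chromatin kinase, ran 2.28 to 218 TPM (median 78.1) in mitotic cells and was listed at 0 in all 14 non-mitotic cells. Cyp39a1, an oxysterol hydroxylase, ran 25.4 to 152 TPM (median 51.3) in mitotic cells and was listed at 0 in all 14 non-mitotic cells and was also listed at 0 in every cell with R under 5. Cenpw, a histone-fold protein of the centromere, and Fntb, the beta subunit of farnesyltransferase, had medians of 74.8 and 51.7 TPM in mitotic cells and were listed at 0 in all non-mitotic cells, but their lowest mitotic values were 0.23 and 0.21 TPM.

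Markers of other cell types made at most 0.059% of TPM per list in any cell of either group. Of 12 microglia, 10 endothelium, 8 mural and 7 choroid plexus genes 0 reached a mean of 10 TPM in either group, and their summed shares were at most 0.0041%, 8.8e-05%, 0.0019% and 0.00028% of TPM in any mitotic cell and at most 0.00033%, 0.0029%, 0.0065% and 0.013% in any non-mitotic cell. Of 15 oligodendrocyte, 12 ependyma and 10 neuron genes 4, 3 and 2 reached it, with shares of at most 0.048%, 0.0079% and 0.0062% in mitotic cells and 0.059%, 0.037% and 0.031% in non-mitotic cells. Mobp, 1 of these oligodendrocyte genes, had a ratio of -4.45 that became 0 without the non-mitotic cell ogp15. Ptprc, which encodes the CD45 that the sort excluded, reached 1 TPM in 0 of the 26 cells.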

How the data were processed

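Per the labels' protocols, single SVZ cells of old mice were sorted, picked by hand and sequenced by Smart-seq2. Tools listed in the submitters' processing notes, without roles, are RSEM 1.2.18 and STAR 2.4.0g1, with mm10 as build, and the gene annotation is not given in the sources used here. The authors deposited TPM, judged by column sums and decimals, with no read counts, so depth is unknown and no count model was used. Of 43309 identifiers 42425 matched a symbol in the reference table, and 42405 symbols were kept. Columns were rescaled to 1000000. 5 SVZ columns sum to under 900000 TPM as deposited, 1 of them in the groups compared.

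Group means over cells were compared as log2 of (mean TPM + 1), for genes with 10 TPM or more in either group, without any test, since cells are not replicates. Exact Clopper-Pearson intervals (95%, scipy 1.17.1) cover counting error only. The procedure was run on simulated data, drawn gene by gene from the non-mitotic cells with known folds planted. The difference in genes per cell between the groups was not simulated, so this run does not check the counts past 4-fold. The members and gene lists were chosen with earlier results of these data known.

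Genes were named by a rule: a mean of 50 TPM or more and detection at 1 TPM in 50% of cells of the higher group, 4-fold also without the highest cell, the same direction in ogp cells alone, and the 15 largest ratios each way (251 and 71 were eligible), besides up to 6 members with 20 TPM or more per list and a few set genes. Pcna, Mcm3, Mcm6, Rrm2, Tyms, H2afz, Hmgb2, Apoe, Aqp4, Ccnd2, Cdk4, Mycn, Hes6, E2f1, Pdk2 and the genes without overlap other than Cdca8 were chosen after their values were seen. A few genes that the rule names are not reported here. Promoters are RefSeq's on GRCm38.p6. Astrocytes and bulk libraries were not used here.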

Additional observations from a re-analysis of the deposited data

How the results depend on the processing

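Each value was recomputed under 19 other settings and without each of the 26 cells in turn. No paired analysis was possible because the cells carry no number that pairs them and no test was made. Of the 2 counts and 4 list medians that answer the comparison, the mitosis, DNA replication and quiescent stem and astrocyte medians kept their sign under every setting, and so did the neuroblast median.

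Genes at least 4-fold higher in mitotic cells numbered 288 with 10 TPM added, 1484 without a filter on low values, 149 with 10 TPM required in both groups, 1913 with logs averaged over cells, 1840 in ogp2 cells alone, and 1398 against non-mitotic cells with 5000 genes or more. Genes at least 4-fold lower numbered 137, 1289, 146 and 198 under the first 4 of these, 1958 in ogp2 cells alone and 1356 against cells with R under 5. The mitosis median was 3.87 with 10 TPM added, 3.42 with 10 TPM in both groups, 5.60 with logs averaged and 7.08 against cells with R under 5. The replication median was 3.92 with logs averaged, 3.10 with columns as deposited, 3.06 with 1 marker as the limit, 1.56 with 3 markers, 4.12 in ogp2 cells, 3.36 without columns under 900000 TPM (ogp111), 3.94 against cells with R under 5 and 3.38 for R between 5 and 12. The neuroblast median was 2.04, 1.58, 1.78, 1.73 and 3.12 with logs averaged, columns as deposited, 1 marker, without ogp111 and against R under 5. The astrocyte median was -0.71 in ogp2 cells, -3.59 against cells with R under 5 and -0.54 against non-mitotic cells with 5000 genes or more. The comparisons with 5000 genes or more and with R between 5 and 12, and leaving out the 2 mitotic cells with exactly 2 markers, were chosen after seeing the data.

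Without each cell in turn the counts ranged from 824 to 973 higher and 746 to 895 lower, and the medians from 6.01 to 6.81 (mitosis), 2.24 to 3.36 (replication), 0.56 to 1.73 (neuroblast) and -1.94 to -1.35 (astrocyte). Ratios past 4-fold that changed sign were those of Acadvl (0.24), Clu (1.19), Entpd2 (2.85), Ppp1r1b (2.48), Robo2 (1.84) and Thbs4 (2.68) against non-mitotic cells with 5000 genes or more, Id3 (1.07) in ogp2 cells, Aqp4 (-3.93), Bgn (4.17), Ncam1 (-1.91), Notum (1.01), Robo2 (0.10) and Sc5d (-1.26) against cells with R under 5, Robo2 (2.03) at R of 7 or more, and E2f1 (-0.41) and Usp18 (-0.77) with 3 markers. Averaging logs moved the median of all genes from -0.07 to 0.79, and the cause was not tested. Detection at 10 TPM left 32 of 34 shares of cells within their interval, and Mki67 and Prom1 in non-mitotic cells went to 0%.

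The unknown depth limits what a value of 0 means in any cell, and the 12 and 14 cells limit each share.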

Other observations

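Genes highest in the non-mitotic ribosome-rich cells were looked for after the data were seen, as those with a mean of 50 TPM or more there, detection in at least 50% of these cells, and a mean at least 4-fold above both mitotic cells and the SVZ cells with R under 5 and fewer than 2 markers (49 ogp and 57 ogp2 cells). There were 12, Ptgds, Snhg15, Rcn3, Bgn, Notum, Pdgfrl, Rgs16, Prss23, Mterf1a, Rnf11, Macrod1 and Ube4a, and they are given as a description. Genes with a mean of 10 TPM or more in either group numbered 9122, counting predicted genes, which the search left out. No like search was made for the other groups, so whether 12 is many is not known. Without the highest non-mitotic cell 6 of the 12 (Rcn3, Notum, Rgs16, Prss23, Mterf1a and Macrod1) kept a 4-fold difference from mitotic cells, and in ogp cells alone 4 (Snhg15, Rcn3, Notum and Ube4a) were under it. Notum, a secreted enzyme that inactivates Wnt ligands, ran 0 to 181 TPM (median 0) in mitotic cells, against 0 to 758 TPM (median 63) in non-mitotic cells, and was in 3 mitotic cells, 10 non-mitotic cells and 8 of the cells with R under 5. Its ratio of mitotic over non-mitotic cells was -2.75, -4.41 without the mitotic cell ogp92 and -1.24 in ogp cells alone. Rgs16, which shortens signals of G protein-coupled receptors, ran 0 to 86 TPM (median 0) in mitotic cells, against 0 to 372 TPM (median 56.3) in non-mitotic cells, a ratio of -3.29 that became -4.72 without the mitotic cell ogp63. It was in 2 of the cells with R under 5, where it reached 1279 TPM, above every non-mitotic cell. Bgn, the matrix proteoglycan biglycan, ran 0 to 143 TPM (median 0.100) in mitotic cells, against 0 to 707 TPM (median 40.7) in non-mitotic cells, a ratio of -2.35 that became -2.95 without the mitotic cell ogp31 and -1.89 without the highest non-mitotic cell, and was also in 2 of those cells. The groups overlapped for each of the 12 genes, with 3 to 7 non-mitotic cells above every mitotic cell. No share over all genes is given beside these numbers.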
